A study of Mus musculus with 7 samples.

Results

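The genes described are 47 that encode the sarcomere, the contractile unit of striated muscle, and its Z-disc: the actins, myosin light chains, troponins, tropomyosins, thick filament and M-band proteins, Z-disc proteins and the factors that assemble them. They were taken by symbol from the 48820 genes of the count table, and myosin heavy chains were left out of the set. RNA was taken from whole tibialis anterior (TA), a shin muscle, 3 days after injury with barium chloride (BaCl2), which kills muscle fibres. All mice were male, 7 weeks old and carried Pax7-CreERT2. The Sirt7 scKO group (Sirt7fl/fl; Pax7-CreERT2) had 4 libraries and the Control group (WT; Pax7-CreERT2) had 3, each labelled a biological replicate. Pax7 is expressed in muscle stem cells, so the inducible recombinase acts in that lineage, whereas the RNA came from every cell of the muscle. How the recombinase was switched on is not stated in the sources used here. The 7 libraries held 5425095 to 7553137 counts in Sirt7 scKO and 5601699 to 5777563 in Control. Levels in CPM (gene counts scaled to library size) are listed in the order of the replicates, 1 to 4 in Sirt7 scKO and 1 to 3 in Control. The targeted gene, Sirt7, had 39.7, 34.1, 47.9 and 52.97 CPM in Sirt7 scKO, against 46.2, 70.6 and 57.3 CPM in Control. It was lower on average in Sirt7 scKO, with ranges that overlapped (log2 fold change -0.42, SE 0.16, edgeR adjusted p = 0.288). An exact permutation test of the CPM, two-sided, gave p = 0.143, where the smallest p possible was 0.0286. These counts cover the whole gene in all cells of the muscle.

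In a sarcomere, thin filaments of actin, tropomyosin and troponin are anchored in the Z-disc by alpha-actinin and slide past thick filaments of myosin, which are held together at the M-band. Titin spans from Z-disc to M-band as a spring, nebulin runs along the thin filament, and calcium released into the fibre binds troponin to allow contraction. Several of these proteins come in isoforms for fast, slow and embryonic or regenerating fibres, and mature and newly formed fibres therefore differ in the isoforms they express. After BaCl2 the old fibres break down and stem cells build new ones, so whole-muscle RNA at this stage can hold sarcomere transcripts of surviving fibres, of dying fibres and of new ones.

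The question of the comparison is how loss of Sirt7 in the stem cell lineage changes gene expression in regenerating muscle. Sarcomere transcripts were less abundant on average in Sirt7 scKO muscle, but no gene of the set passed the test over all genes. Of the 47 genes, 45 had enough counts to be tested, all but Myl2 and Myl3. Of the 45, 43 had negative log2 fold changes (Sirt7 scKO over Control), against 48.7% of the 16764 genes tested, and their median was -0.98, against 0.01 over all genes tested. None passed a Benjamini-Hochberg adjusted p of 0.05 in edgeR's quasi-likelihood test, a level that 0.131% of all genes tested passed, 0.0298% as lower. At an unadjusted p under 0.05, 36 of the 45 were lower in Sirt7 scKO and 0 higher, against 6.94% of all genes tested lower and 6.69% higher. DESeq2 called 2 of the 45, Actn3 and Myom3, both lower, against 0.447% of all genes, and limma voom called 0, against 0.0418%. The 45 genes were read in the same 7 libraries and moved together between them, so these are not 45 separate observations. Fewer fibres and less sarcomere RNA in each fibre cannot be told apart in whole muscle.

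The libraries within each group differed widely. The 47 genes took 0.474%, 0.210%, 0.264% and 0.252% of all counts in Sirt7 scKO replicates 1 to 4, against 0.762%, 0.508% and 0.332% in Control replicates 1 to 3. Replicate 1 was thus the highest of each group, and Sirt7 scKO replicate 1 lay above Control replicate 3. Control replicate 1 was the highest of the 7 libraries for 42 of the 45 genes, against 15.1% of all genes tested. The exceptions were Ankrd1, Mybpc2 and Tpm3. Control replicate 3 lay below the highest Sirt7 scKO library for 42 of the 45, against 80.2% of all genes tested, and below Sirt7 scKO replicate 1 for 36 of them. It lay above the other 3 Sirt7 scKO libraries for 31 of the 45, against 25.2% of all genes tested. The groups did not overlap for 3 genes, Actn3, Myom3 and Actc1, all lower in Sirt7 scKO. That is 6.67% of the 45, close to the 5.71% of all genes tested whose groups did not overlap in this direction.

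**Figure D1:**
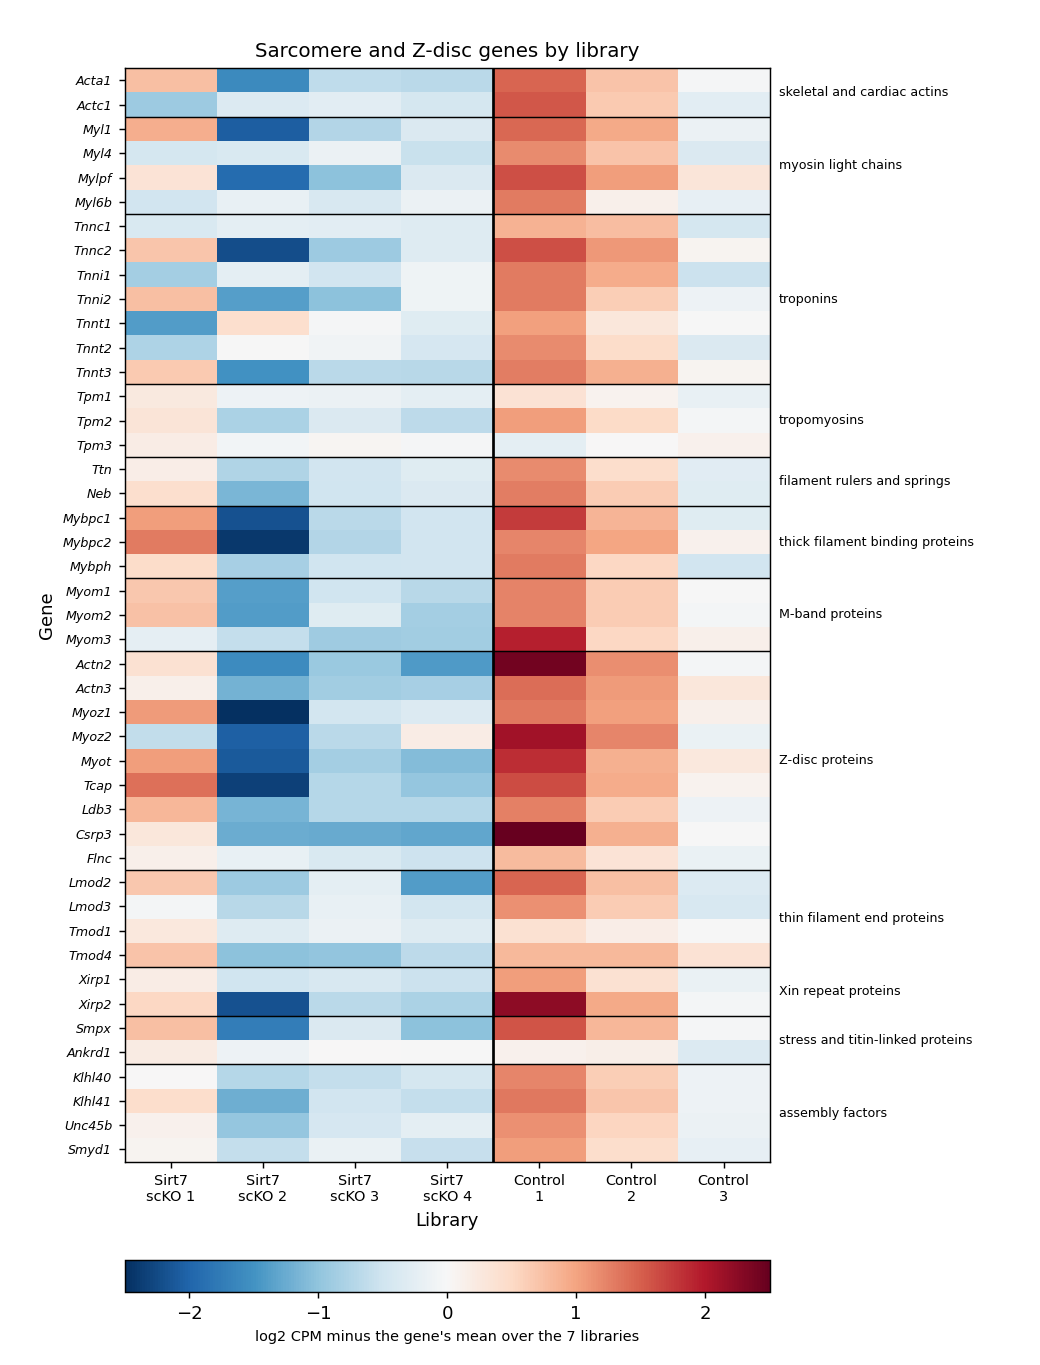
Level of the 45 tested genes (rows, by role) in the 4 Sirt7 scKO and 3 Control libraries (columns), as log2 CPM minus the gene's mean over the 7 libraries. Control replicate 1 is the darkest red column, Sirt7 scKO replicate 2 the darkest blue, and Sirt7 scKO replicate 1 is red in most rows and blue in some, such as those of Actc1, Tnni1, Tnnt1 and Tnnt2.

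Leaving out 1 library changed how many of the genes passed. Without Sirt7 scKO replicate 1, 23 of the 45 passed, all lower, against 0.881% of all genes tested, and the median became -1.49. Without Control replicate 3, 11 passed, all lower, against 0.238%, and the median became -1.26. Only Actn2, Actn3, Csrp3, Klhl40 and Myom3, 5 genes, were in both of these counts. Without Sirt7 scKO replicate 4, Actn3 alone passed, against 1.18%. Without Control replicate 1 none passed, against 0%, and the median became -0.59. None passed without Control replicate 2, against 0%, or without Sirt7 scKO replicate 2 or 3, against 0.0361% and 0.0121% of all genes tested as lower. Among the genes given for every library, some fold changes also moved by more than 1.5 times. Without Control replicate 1, the log2 fold change of Csrp3 was -1.20, of Actn2 -1.34, of Myoz2 -1.33, of Xirp2 -1.02 and of Myom3 -0.94. Without Sirt7 scKO replicate 1, that of Actn2 was -2.78, of Xirp2 -2.44, of Tnnc2 -2.04, of Acta1 -1.75 and of Tnnt3 -1.75.

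Skeletal muscle genes are switched on by MyoD-family factors at E-boxes, by MEF2, by serum response factor at CArG boxes and by TEAD factors at MCAT elements. RefSeq promoters (GRCm38.p6, 250 bases before to 50 after each start) were held for 37 of the 47 genes, with 44 entries in all. They were searched on both strands for the E-box CAGCTG, the MEF2 site, the CArG box and the MCAT element CATTCC. The E-box was in 16 of the 44 (36.4%), against 16.3% of all 32851 promoters of the same length. The MEF2 site was in 5 (11.4%, against 3.19%), the CArG box in 6 (13.6%, against 1.63%) and the MCAT element in 13 (29.5%, against 14.7%). Entries of 1 gene can overlap and hold the same site, as those of Ldb3 do for the CArG box. By gene, the E-box was in 14, the MEF2 site in 5, the CArG box in 5 and the MCAT element in 12. The 5 promoters printed are those of both actins, which carry a CArG box each, and of Mylpf, Klhl41 and Myom3, which carry an E-box, an E-box with a MEF2 site, and a MEF2 site. They are Acta1 (chr8:123894726-123895025, minus strand), Actc1 (chr2:114052826-114053125, minus strand), Mylpf (chr7:127211358-127211657, plus strand), Klhl41 (chr2:69669870-69670169, plus strand) and Myom3 (chr4:135759465-135759764, plus strand). Capitals mark these 4 motifs, which do not overlap one another in these promoters, and a match of letters is a description and not a bound site.
Acta1: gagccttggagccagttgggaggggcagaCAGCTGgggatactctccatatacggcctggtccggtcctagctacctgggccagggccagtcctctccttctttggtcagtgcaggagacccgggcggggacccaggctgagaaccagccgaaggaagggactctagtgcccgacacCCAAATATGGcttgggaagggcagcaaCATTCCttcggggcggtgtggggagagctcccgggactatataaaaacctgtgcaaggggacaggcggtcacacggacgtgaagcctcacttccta
Actc1: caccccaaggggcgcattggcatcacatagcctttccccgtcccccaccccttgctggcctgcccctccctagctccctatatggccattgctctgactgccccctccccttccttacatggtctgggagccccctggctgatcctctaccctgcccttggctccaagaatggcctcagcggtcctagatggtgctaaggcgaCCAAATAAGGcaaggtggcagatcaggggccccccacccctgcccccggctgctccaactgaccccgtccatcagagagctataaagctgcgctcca
Mylpf: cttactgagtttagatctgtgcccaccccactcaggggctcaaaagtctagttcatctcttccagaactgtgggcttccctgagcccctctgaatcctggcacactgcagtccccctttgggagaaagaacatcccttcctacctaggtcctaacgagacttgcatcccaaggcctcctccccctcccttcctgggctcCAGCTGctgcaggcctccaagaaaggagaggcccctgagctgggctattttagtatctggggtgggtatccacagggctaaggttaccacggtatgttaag
Klhl41: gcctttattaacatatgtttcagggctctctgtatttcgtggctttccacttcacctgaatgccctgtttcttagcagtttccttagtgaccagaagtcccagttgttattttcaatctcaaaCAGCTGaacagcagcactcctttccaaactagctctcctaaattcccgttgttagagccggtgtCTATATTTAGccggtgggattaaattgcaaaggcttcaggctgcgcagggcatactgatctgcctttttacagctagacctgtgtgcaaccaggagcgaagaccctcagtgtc
Myom3: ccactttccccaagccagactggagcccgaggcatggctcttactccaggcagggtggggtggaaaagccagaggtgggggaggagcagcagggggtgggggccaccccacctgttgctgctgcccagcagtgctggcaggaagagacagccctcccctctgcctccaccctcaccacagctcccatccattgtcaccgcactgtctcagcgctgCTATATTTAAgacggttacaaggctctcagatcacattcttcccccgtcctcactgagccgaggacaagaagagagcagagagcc
The CArG box began 73 bases before the RefSeq start in Acta1 and 47 bases before it in Actc1, and the MEF2 site began 63 bases before it in Klhl41 and 35 bases before it in Myom3. The E-box began 51 bases before the start in Mylpf and 127 bases before it in Klhl41.

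The actins form the thin filament. Acta1 (ENSMUSG00000031972.4, GRCm38 chromosome 8, 123891769 to 123894751, minus strand), the skeletal actin of adult fibres, had 1299.6, 257, 494 and 481 CPM in Sirt7 scKO, against 2124, 1266 and 754 CPM in Control. The groups overlapped, and Sirt7 scKO replicate 1 lay above Control replicates 2 and 3 (log2 fold change -1.13, SE 0.43, edgeR adjusted p = 0.280). Acta1 was the most abundant of the 45 genes per length, at 412 ± 298 in Sirt7 scKO and 899 ± 451 in Control CPM per kilobase of merged exons. Actc1 (ENSMUSG00000068614.7, GRCm38 chromosome 2, 114047282 to 114053548, minus strand), the cardiac actin that embryonic and regenerating skeletal fibres also express, had 28.8, 42.9, 45.2 and 40.3 CPM in Sirt7 scKO, against 159, 85.7 and 45.4 CPM in Control. Every Sirt7 scKO library lay below every Control library for Actc1, by a margin of less than 1 CPM at Control replicate 3, and Sirt7 scKO replicate 1 was the lowest of the 7 (log2 fold change -1.30, SE 0.30, edgeR adjusted p = 0.116). The coding sequences of both actins are much alike, and the rule for reads that align to more than 1 gene is not given, so the division of reads between them is uncertain. All 3 of the highest per-length levels in Control belonged to the thin filament: Acta1, Tnnc2 at 66.7 ± 50.5 in Sirt7 scKO and 175 ± 84.3 in Control CPM per kilobase, and Tpm2 at 52.2 ± 19.8 in Sirt7 scKO and 94.8 ± 35.7 in Control CPM per kilobase. The level of Tnnc2 is uncertain, since 74% of its merged exons overlap another gene, Ube2c, on the other strand.

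**Figure D2:**
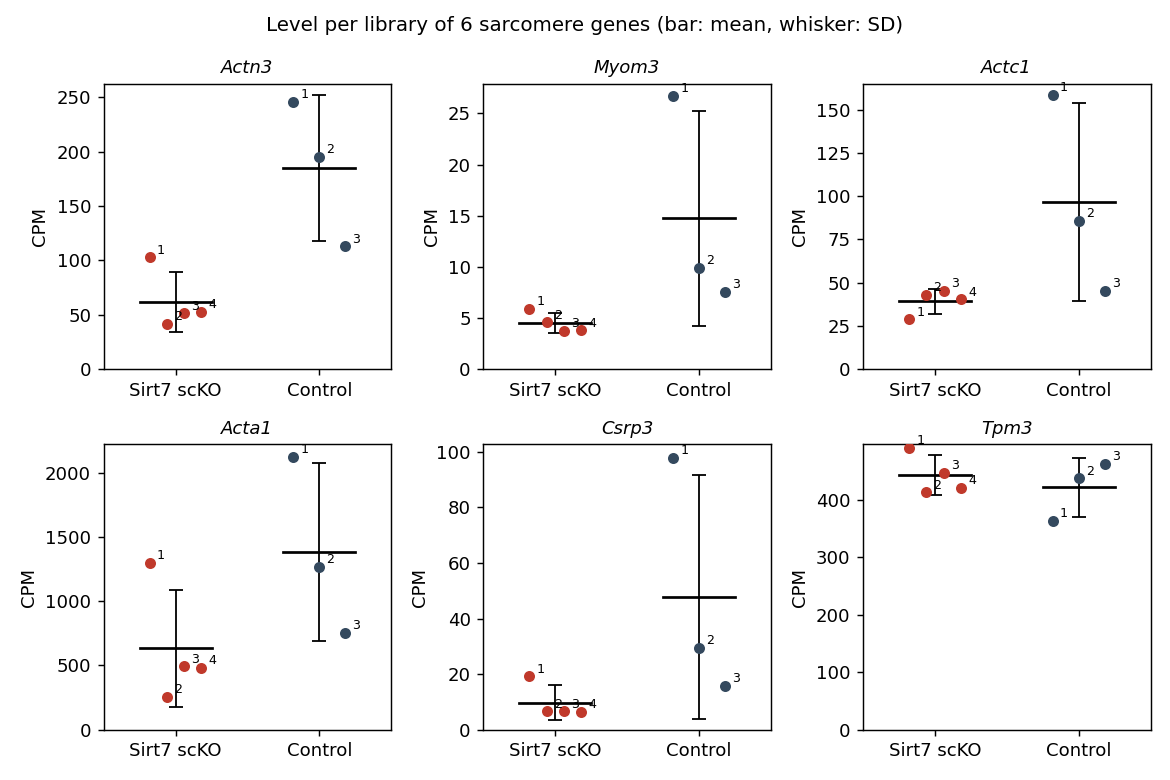
CPM of Actn3, Myom3, Actc1, Acta1, Csrp3 and Tpm3 in each library (points, numbered by replicate), with the mean (bar) and SD (whisker) of the 4 Sirt7 scKO and 3 Control libraries. Control replicate 3 lies next to the Sirt7 scKO points for Myom3 and Actc1, Sirt7 scKO replicate 1 is the highest of its group for Actn3, Acta1 and Csrp3, and Tpm3 lies between 364 and 490.2 CPM in all libraries.

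Among the myosin light chains, which stiffen and regulate the lever arm of myosin, 4 of 6 genes could be tested and all 4 had negative fold changes. Mylpf, the regulatory light chain of fast fibres, had 49.8, 10.3, 19.2 and 30.3 CPM in Sirt7 scKO, against 120.05, 80.8 and 48.2 CPM in Control. Sirt7 scKO replicate 1 lay just above Control replicate 3 and the other 3 below every Control library (log2 fold change -1.61, SE 0.39, edgeR adjusted p = 0.130). Myl4, the light chain of embryonic muscle and of the atrium, had 15.3, 15.96, 18.7 and 14.2 CPM in Sirt7 scKO, against 47.1, 34.1 and 16.3 CPM in Control. Its 4 Sirt7 scKO libraries lay close together around Control replicate 3, with Control replicates 1 and 2 above them (log2 fold change -1.01, SE 0.26, edgeR adjusted p = 0.136). Myl1, the essential light chain of fast fibres, ranged over 9.42 to 74.1 CPM in Sirt7 scKO, against 35.6 to 106 CPM in Control (log2 fold change -1.07), and Myl6b, a slow fibre light chain, over 4.78 to 6.05 CPM in Sirt7 scKO, against 5.78 to 16.5 CPM in Control (log2 fold change -0.86). Myl2 and Myl3, the ventricular and slow fibre light chains, were at 0 counts in all 4 Sirt7 scKO libraries. In Control, Myl2 had 4 counts in replicate 2 and Myl3 had 2 counts in replicate 1, with 0 in the others, too few for a fold change.

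Troponin, the calcium switch of the thin filament, has a calcium-binding, an inhibitory and a tropomyosin-binding subunit, and all 7 genes measured had negative fold changes, with a median of -0.91. Tnni1, the inhibitory subunit of slow and of developing fibres, had 8.02, 12.2, 10.3 and 13.4 CPM in Sirt7 scKO, against 35.6, 27.3 and 9.99 CPM in Control. Sirt7 scKO replicates 2 to 4 lay above Control replicate 3, and Sirt7 scKO replicate 1 was the lowest of the 7 (log2 fold change -1.15, SE 0.32, edgeR adjusted p = 0.165). Tnnc1, the calcium-binding subunit of slow fibres and heart, had 5.06, 5.63, 5.54 and 5.30 CPM in Sirt7 scKO, against 12.2, 11.3 and 4.91 CPM in Control. All Sirt7 scKO libraries lay just above Control replicate 3 and below the other Control libraries (log2 fold change -0.81, SE 0.27, edgeR adjusted p = 0.236). Tnnt2, the cardiac tropomyosin-binding subunit that embryonic skeletal muscle also expresses, had 7.03, 12.04, 11.4 and 9.08 CPM in Sirt7 scKO, against 27.4, 16.5 and 9.46 CPM in Control, again with Control replicate 3 inside the Sirt7 scKO range (log2 fold change -0.84, SE 0.29, edgeR adjusted p = 0.250). The fast subunits had another order of libraries. Tnnt3 had 89.2, 20.02, 35.6 and 35.4 CPM in Sirt7 scKO, against 138, 105 and 59.6 CPM in Control, so that Sirt7 scKO replicate 1 lay between Control replicates 2 and 3 (log2 fold change -1.16, SE 0.38, edgeR adjusted p = 0.225). Tnnc2, the fast calcium-binding subunit, had 109, 14.5, 36.1 and 53.9 CPM in Sirt7 scKO, against 206, 142 and 70.95 CPM in Control, and Sirt7 scKO replicate 1 lay between Control replicates 2 and 3 (log2 fold change -1.39, SE 0.47, edgeR adjusted p = 0.239). Of the merged exons of Tnnc2, 74% overlap Ube2c, a cell cycle gene on the other strand with 82.7 ± 38.9 CPM in Sirt7 scKO and 167 ± 68.6 CPM in Control (SD, n = 4 and 3), and the library kit does not mark the strand, so their reads cannot be told apart. Tnni2, the fast inhibitory subunit, ranged over 22.9 to 99.6 CPM in Sirt7 scKO, against 54.7 to 146 CPM in Control (log2 fold change -0.91), and Tnnt1, the slow tropomyosin-binding subunit, over 2.67 to 9.42 CPM in Sirt7 scKO, against 7.01 to 14.4 CPM in Control (log2 fold change -0.69).

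Tropomyosins lie along the actin filament, and their genes also give isoforms of other cell types, which gene counts do not separate. Tpm2 had 235, 107, 146 and 119 CPM in Sirt7 scKO, against 386, 260.5 and 180.3 CPM in Control. Sirt7 scKO replicate 1 lay between Control replicates 2 and 3, and the other Sirt7 scKO libraries lay below all Control libraries (log2 fold change -0.86, SE 0.26, edgeR adjusted p = 0.194). Tpm1 stood at 298 ± 48.1 CPM in Sirt7 scKO and 333 ± 64.6 CPM in Control (SD, n = 4 and 3), with overlapping groups (log2 fold change -0.16). Tpm3, whose muscle isoform belongs to slow fibres, had 490.2, 413, 447 and 421 CPM in Sirt7 scKO, against 364, 437 and 463 CPM in Control. This was 1 of 2 genes of the set with a positive fold change, and Control replicate 1, the highest library of most other sarcomere genes, was its lowest (log2 fold change 0.07, SE 0.10, edgeR adjusted p = 0.800). The 95% interval of the Tpm3 difference, -0.14 to 0.29 on the log2 scale, did not reach the median of the set. Its fold change became -0.030 without Control replicate 1.

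Titin and nebulin, the spring and the ruler of the filaments, are the longest genes of the set. Titin (Ttn) had 295, 156, 189 and 213 CPM in Sirt7 scKO, against 596, 355 and 216 CPM in Control. Sirt7 scKO replicate 1 lay above Control replicate 3, and Sirt7 scKO replicate 4 lay within 4 CPM of it (log2 fold change -0.87, SE 0.27, edgeR adjusted p = 0.206). Nebulin (Neb) had 66.97, 22.5, 35.2 and 38.8 CPM in Sirt7 scKO, against 121, 77.8 and 40.3 CPM in Control. Sirt7 scKO replicate 1 again lay above Control replicate 3 (log2 fold change -0.97, SE 0.34, edgeR adjusted p = 0.253).

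Thick filament binding proteins attach to myosin along the filament. Mybpc1, of slow fibres, ranged over 9.42 to 87.8 CPM in Sirt7 scKO, against 34.9 to 145 CPM in Control (log2 fold change -1.14). Mybpc2, of fast fibres, ranged over 5.49 to 72.6 CPM in Sirt7 scKO, against 31.5 to 68.97 CPM in Control (log2 fold change -0.85), and its highest library was Sirt7 scKO replicate 1. Mybph ranged over 30.7 to 75.6 CPM in Sirt7 scKO, against 39.6 to 135 CPM in Control (log2 fold change -0.87). Of the merged exons of Mybph, 49.9% overlap Adora1 on the other strand, and their reads cannot be told apart. The M-band proteins tie thick filaments together. Myom3 (ENSMUSG00000037139.15, GRCm38 chromosome 4, 135759715 to 135815564, plus strand), myomesin 3, had 5.91, 4.58, 3.74 and 3.78 CPM in Sirt7 scKO, against 26.8, 9.88 and 7.53 CPM in Control. Every Sirt7 scKO library lay below every Control library for Myom3, and Control replicate 1 stood apart above the other Control libraries (log2 fold change -1.69, SE 0.38, edgeR adjusted p = 0.106). Myomesin 1 (Myom1) ranged over 8.77 to 36.3 CPM in Sirt7 scKO, against 22.6 to 53.5 CPM in Control (log2 fold change -0.98). Myomesin 2 (Myom2) ranged over 13.9 to 60.5 CPM in Sirt7 scKO, against 35.2 to 86.2 CPM in Control (log2 fold change -0.93). Both had overlapping groups, with Sirt7 scKO replicate 1 above Control replicate 3.

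The Z-disc anchors thin filaments, and all 9 of its genes had negative fold changes, with a median of -1.40. Actn3 (ENSMUSG00000006457.3, GRCm38 chromosome 19, 4861216 to 4877909, minus strand), the alpha-actinin of fast fibres, had the smallest p of the set, with 103, 41.5, 51.3 and 52.4 CPM in Sirt7 scKO, against 246, 195 and 113 CPM in Control. All Sirt7 scKO libraries lay below all Control libraries, Sirt7 scKO replicate 1 within 11 CPM of Control replicate 3. On the log2 scale Actn3 differed by -1.57 (SE 0.28), with a 95% interval of -2.18 to -0.96. Its edgeR adjusted p of 0.0519 missed the threshold. Over 18 alternative settings the adjusted p ran from 4.27e-17 to 0.262 and passed in 10. The smallest came from the fit with no count filter, in which 40 of the 47 genes passed. Upper-quartile scaling, total-count scaling and a filter at a mean of 1 CPM passed narrowly, at edgeR adjusted p of 0.0494, 0.0486 and 0.0491. Actn2, the alpha-actinin of all fibres and of heart, had 24.1, 6.28, 9.73 and 7.00 CPM in Sirt7 scKO, against 98.5, 41.9 and 18.04 CPM in Control. Sirt7 scKO replicate 1 lay above Control replicate 3, and Control replicate 1 was more than 2 times as high as any other library (log2 fold change -2.15, SE 0.50, edgeR adjusted p = 0.118). Csrp3, the muscle LIM protein, a sensor of stretch, had 19.3, 6.67, 6.59 and 6.43 CPM in Sirt7 scKO, against 97.99, 29.5 and 15.8 CPM in Control. Sirt7 scKO replicates 2 to 4 lay within 1 CPM of one another, and Control replicate 1 was more than 3 times as high as any other library (log2 fold change -2.27, SE 0.53, edgeR adjusted p = 0.118). That log2 fold change, the most negative of the set over all 7 libraries, was -1.20 without Control replicate 1, where those of Actn2, Myoz2, Actn3 and Mylpf were more negative. Myoz2, a calcineurin-binding Z-disc protein of slow fibres and heart, had 1.41, 0.523, 1.35 and 2.46 CPM in Sirt7 scKO, against 9.21, 5.03 and 1.93 CPM in Control, where the highest Sirt7 scKO library, replicate 4, lay above Control replicate 3 (log2 fold change -1.96, SE 0.51, edgeR adjusted p = 0.139). Flnc, the muscle filamin, which is recruited to damaged Z-discs, had 295, 240.2, 207 and 190.1 CPM in Sirt7 scKO, against 474, 343 and 242 CPM in Control. It had the smallest difference of the 9, and Sirt7 scKO replicate 1 lay above Control replicate 3 (log2 fold change -0.60, SE 0.19, edgeR adjusted p = 0.214). The remaining 4 each had Sirt7 scKO replicate 1 above Control replicate 3. Myot, myotilin, which crosslinks actin, ranged over 3.66 to 32.6 CPM in Sirt7 scKO, against 18.9 to 56.6 CPM in Control (log2 fold change -1.40). Ldb3, which binds alpha-actinin, ranged over 22.2 to 88.8 CPM in Sirt7 scKO, against 45.2 to 119 CPM in Control (log2 fold change -0.90). Tcap, the titin cap, ranged over 5.10 to 66.8 CPM in Sirt7 scKO, against 27.3 to 79.7 CPM in Control (log2 fold change -1.03). Myoz1, the fast fibre relative of Myoz2, ranged over 2.09 to 29.1 CPM in Sirt7 scKO, against 15.2 to 34.6 CPM in Control (log2 fold change -0.99). For all 4 of these genes, Sirt7 scKO replicate 2 was the lowest library and Sirt7 scKO replicate 1 the highest of its group.

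**Figure D3:**
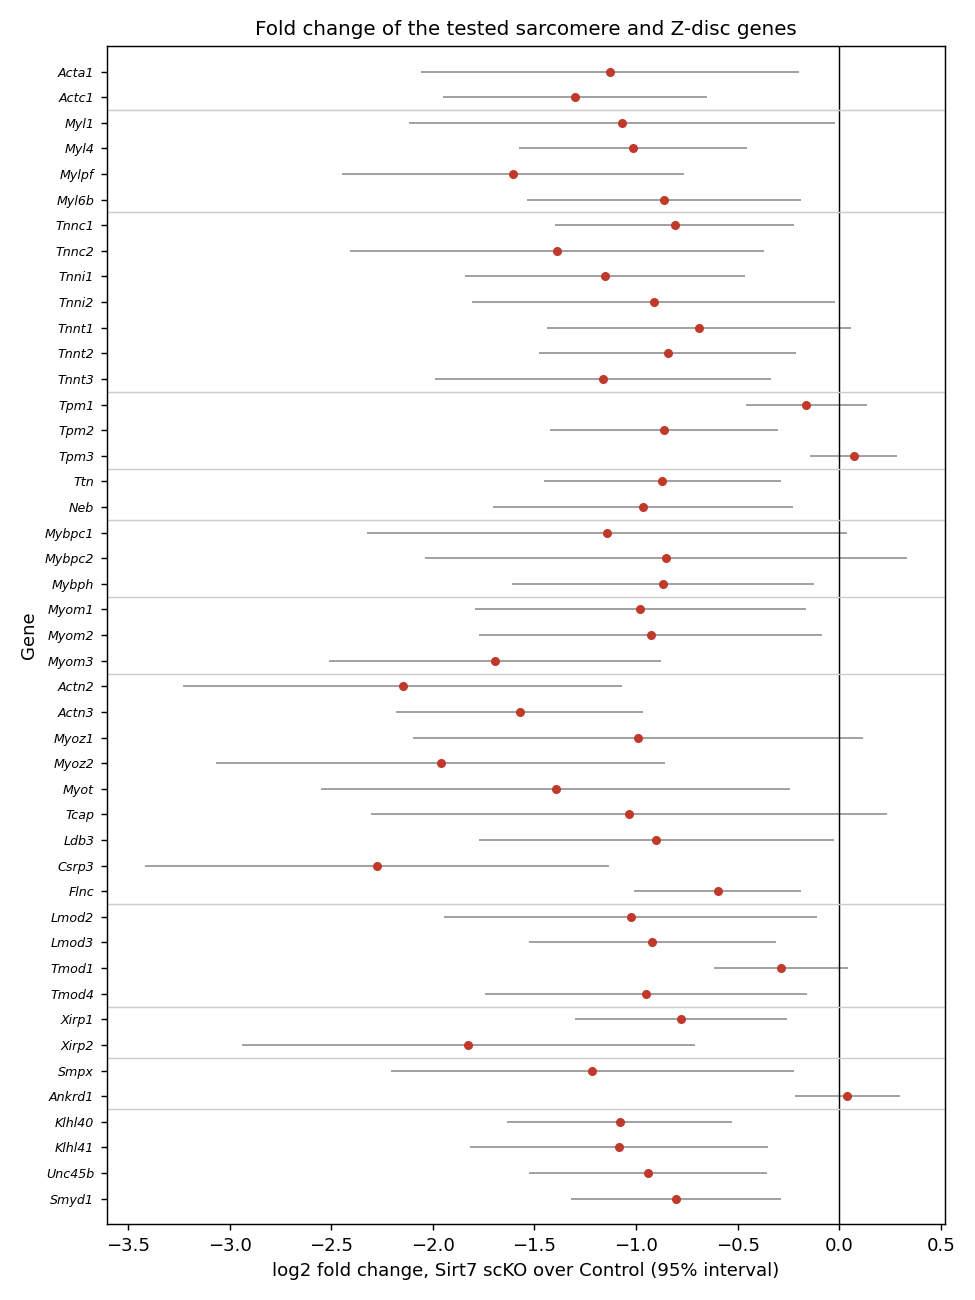
Log2 fold change of each tested gene, Sirt7 scKO over Control (points), with its 95% interval from the edgeR fit (lines), ordered by role, without adjustment for multiple tests. All points except Tpm3 and Ankrd1 lie below 0, from -2.27 for Csrp3 to -0.16 for Tpm1.

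Leiomodins lengthen thin filaments at the pointed end and tropomodulins cap them there. Lmod3 had 14.2, 9.03, 12.9 and 10.6 CPM in Sirt7 scKO, against 32.5, 22.8 and 11.04 CPM in Control, and Sirt7 scKO replicates 1 and 3 lay above Control replicate 3 (log2 fold change -0.92, SE 0.28, edgeR adjusted p = 0.201). Lmod2 ranged over 4.35 to 18.3 CPM in Sirt7 scKO, against 9.11 to 31.4 CPM in Control (log2 fold change -1.03). Tmod4, the tropomodulin of skeletal muscle, ranged over 2.62 to 8.72 CPM in Sirt7 scKO, against 6.83 to 9.38 CPM in Control (log2 fold change -0.95), and Tmod1 over 26.7 to 40.4 CPM in Sirt7 scKO, against 33.1 to 43.4 CPM in Control (log2 fold change -0.29), all 3 with overlapping groups. Tmod1, whose merged exons overlap Tstd2 on the other strand over 32.6% of their length, is also expressed outside muscle. The Xin repeat proteins bind actin at cell junctions and at sites of fibre damage. Xirp2 had 73.4, 11.3, 31.9 and 29.5 CPM in Sirt7 scKO, against 241, 98.3 and 49.4 CPM in Control, with Control replicate 1 far above all others and Sirt7 scKO replicate 1 above Control replicate 3 (log2 fold change -1.82, SE 0.52, edgeR adjusted p = 0.173). Xirp1 had 45.4, 28.00, 30.2 and 27.4 CPM in Sirt7 scKO, against 82.2, 51.6 and 35.4 CPM in Control, a narrower spread in the same order of replicate 1 above the rest (log2 fold change -0.78, SE 0.24, edgeR adjusted p = 0.206).

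The assembly factors fold myosin or stabilise thin filament proteins, and all 4 had negative fold changes. Klhl40, which stabilises nebulin and leiomodin 3, had 24.6, 15.05, 16.3 and 18.2 CPM in Sirt7 scKO, against 57.5, 37.7 and 22.4 CPM in Control, with Sirt7 scKO replicate 1 just above Control replicate 3 (log2 fold change -1.08, SE 0.26, edgeR adjusted p = 0.119). Klhl41, a related protein that acts on nebulin, had 89.2, 28.3, 47.2 and 43.7 CPM in Sirt7 scKO, against 165, 107 and 60.1 CPM in Control, in the same arrangement with a wider gap (log2 fold change -1.08, SE 0.34, edgeR adjusted p = 0.211). Unc45b, the myosin chaperone, had 21.4, 10.2, 14.97 and 16.8 CPM in Sirt7 scKO, against 43.95, 28.9 and 18.04 CPM in Control (log2 fold change -0.94, SE 0.27, edgeR adjusted p = 0.180). Smyd1, a methyltransferase needed for thick filament assembly, had 35.3, 22.4, 29.9 and 22.5 CPM in Sirt7 scKO, against 69.8, 45.4 and 29.3 CPM in Control (log2 fold change -0.80, SE 0.24, edgeR adjusted p = 0.190). Sirt7 scKO replicate 1 lay above Control replicate 3 for Unc45b, and Sirt7 scKO replicates 1 and 3 did for Smyd1. Smpx, a small protein of muscle under stretch, ranged over 2.22 to 12.4 CPM in Sirt7 scKO, against 7.18 to 21.7 CPM in Control (log2 fold change -1.21). Ankrd1, a titin-binding protein that muscle induces on injury and strain, had 114, 90.7, 99.1 and 98.2 CPM in Sirt7 scKO, against 106, 109.8 and 78.1 CPM in Control. Its groups overlapped, and 1 of the 2 positive fold changes of the set was its own (log2 fold change 0.04, SE 0.12, edgeR adjusted p = 0.914). That value became -0.095 without Control replicate 3 and -0.032 without Sirt7 scKO replicate 1.

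Within Sirt7 scKO the genes fell into sets with different orders of libraries. Replicate 1 was the highest Sirt7 scKO library for 37 of the 45 genes, against 23.2% of all genes tested. The 8 exceptions were Actc1, Myl4, Tnnt2, Tnni1, Tnnc1, Tnnt1, Myl6b and Myoz2, and replicate 1 was the lowest for 6 of them, all but Myl4 and Myoz2. For the 8 fast fibre isoforms, Actn3, Myl1, Mylpf, Tnnc2, Tnni2, Tnnt3, Mybpc2 and Myoz1, replicate 1 exceeded the mean of the other Sirt7 scKO libraries by 1.09 to 2.30 on the log2 scale (median 1.60). For the 3 developmental isoforms, Actc1, Myl4 and Tnnt2, the same difference was -0.62 to -0.09 (median -0.57), and for the 6 tested slow fibre isoforms it was -1.45 to 0.20 (median -0.18). Mybpc1, of slow fibres but not placed in that class, had a difference of 1.98, within the range of the fast isoforms. Other genes of no class were as high or higher, such as Tcap (2.55), Myot (2.31) and Acta1 (1.66). Others of no class were lower, such as Lmod3 (0.39) and Ankrd1 (0.25). The excess was thus not particular to the fast isoforms. In Control, replicate 1 lay above replicate 3 for 44 of the 45 genes, all but Tpm3. The summed level of the fast isoforms was 626, 126, 223 and 290 CPM in Sirt7 scKO replicates 1 to 4, against 1066, 777 and 429 CPM in Control replicates 1 to 3. That of the developmental isoforms was 51.2, 70.9, 75.3 and 63.6 CPM in Sirt7 scKO replicates 1 to 4, against 233, 136 and 71.1 CPM in Control replicates 1 to 3. So for fast isoforms Sirt7 scKO replicate 1 reached the level between Control replicates 2 and 3, and for developmental isoforms it was the lowest of the 7.

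**Figure D4:**
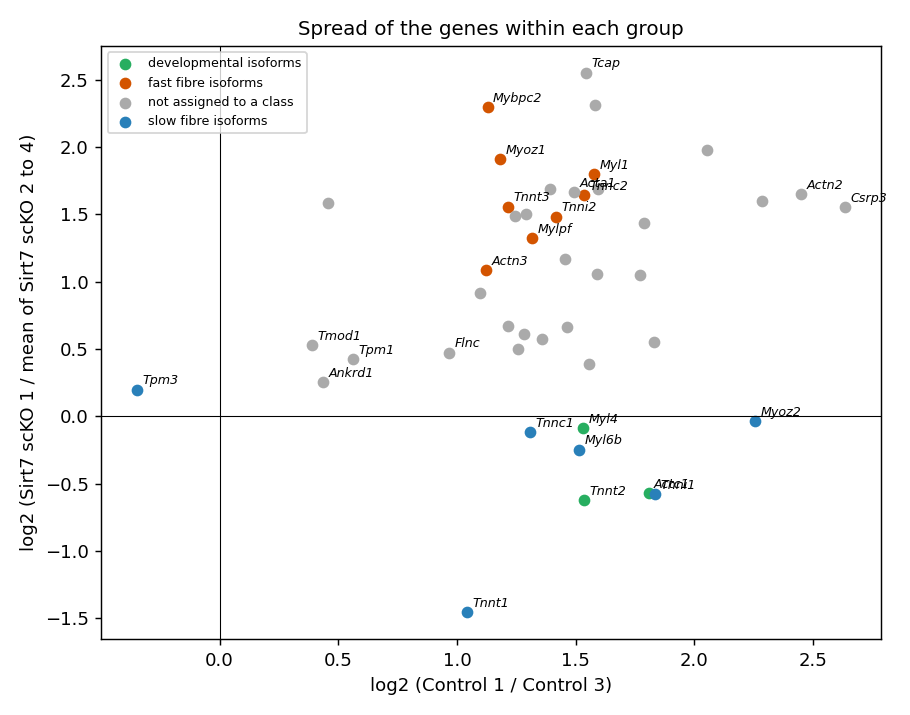
Each point is 1 of the 45 genes: the log2 ratio of Control replicate 1 to Control replicate 3 (x axis) against the log2 ratio of Sirt7 scKO replicate 1 to the mean of Sirt7 scKO replicates 2 to 4 (y axis), coloured by fibre class. Fast isoforms lie at 1.09 to 2.30 on the y axis and developmental isoforms at -0.62 to -0.09, whereas both classes lie to the right of 0 on the x axis.

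The ratio of paired isoforms within a library does not depend on how libraries are scaled. For Actc1 over Acta1 the log2 ratio of counts was -5.49, -2.58, -3.45 and -3.57 in Sirt7 scKO, against -3.74, -3.88 and -4.05 in Control. The mean was -3.77 ± 1.23 in Sirt7 scKO and -3.89 ± 0.16 in Control (SD, n = 4 and 3), so the groups had means that differed by less than the spread in Sirt7 scKO. For Myl4 over Myl1 it was -2.27, 0.76, -0.35 and -1.11 in Sirt7 scKO, against -1.17, -1.15 and -1.12 in Control, a range of 3.02 in Sirt7 scKO and 0.05 in Control. For Tnnt1 over Tnnt3 it was -5.02, -1.08, -2.36 and -2.62 in Sirt7 scKO, against -3.25, -3.60 and -3.07 in Control. Of 10 pairs with enough counts, none separated the groups, and the range was wider in Sirt7 scKO in 7. In those 7 pairs, Actc1 over Acta1, Myl4 over Myl1, Tnnc1 over Tnnc2, Tnni1 over Tnni2, Tnnt1 over Tnnt3, Tnnt2 over Tnnt3 and Myoz2 over Myoz1, Sirt7 scKO replicate 1 was the lowest and Sirt7 scKO replicate 2 the highest of the 7 libraries. The other 3, Actn2 over Actn3, Tpm3 over Tpm1 and Mybpc1 over Mybpc2, had a wider range in Control. These ratios are given as a description, with no test, and only 4 and 3 libraries stand behind each range. That of Tnnc1 over Tnnc2 is uncertain, since reads of Tnnc2 and Ube2c cannot be told apart. For Myoz2 over Myoz1, Sirt7 scKO replicate 2 rests on 4 and 16 counts. Its ratio of -1.87 lay just above the -1.90 of Control replicate 1, so its place as the highest is uncertain. Tnnt1 over Tnnt3 and Tnnt2 over Tnnt3 share a denominator.

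**Figure D5:**
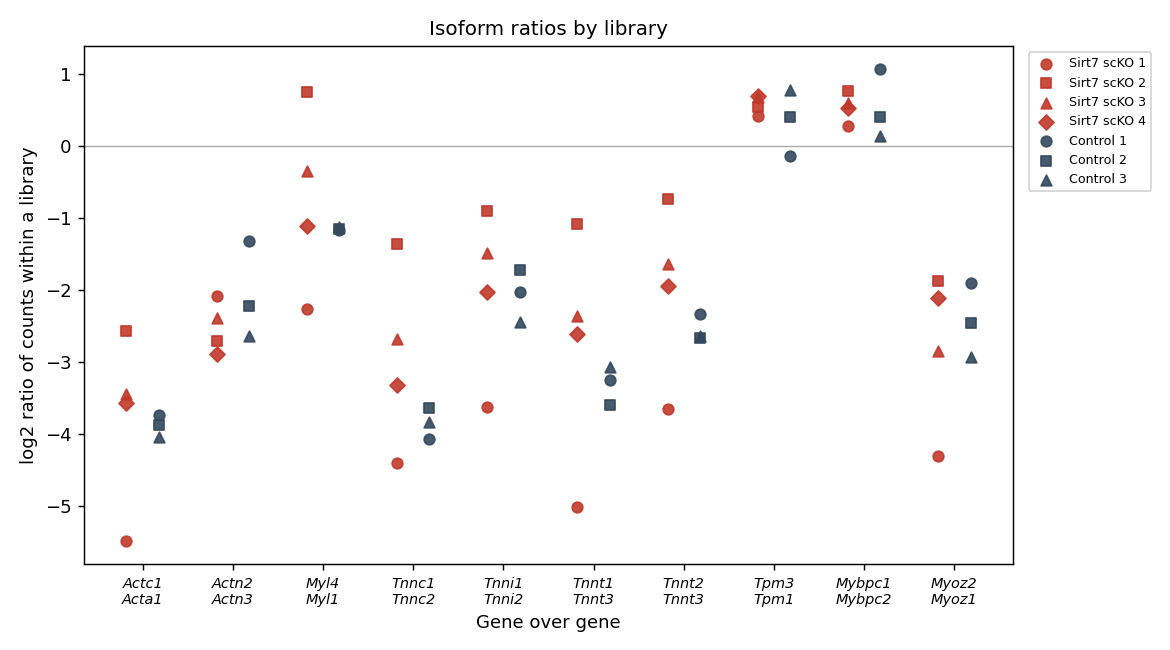
Log2 ratio of counts of 10 isoform pairs (upper gene over lower gene on the x axis) in each library, Sirt7 scKO in red to the left and Control in dark blue to the right, with a marker shape for each replicate. Control points lie close together for Actc1 over Acta1 and Myl4 over Myl1, whereas Sirt7 scKO replicate 1 (circle) lies at the bottom and replicate 2 (square) at the top.

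Other sarcomere genes had the same direction on balance, and none of them passed the threshold. Of 33 further sarcomere and Z-disc genes that could be tested (of 34), 26 had negative fold changes, with a median of -0.65. At an unadjusted p under 0.05, 18 of the 33 were lower and 2 higher, against 6.94% and 6.69% of all genes tested, so the 2 higher are near the background. The smallest p belonged to Speg, a kinase of the muscle triad, at 32.1 ± 6.45 CPM in Sirt7 scKO and 50.8 ± 8.59 CPM in Control (SD, n = 4 and 3). Next came Nrap, a scaffold of new myofibrils, at 14.2 ± 7.72 CPM in Sirt7 scKO and 42.8 ± 24.7 CPM in Control (SD, n = 4 and 3). All 7 tested myosin heavy chains (of 10) had negative fold changes, with a median of -1.36, and 5 were lower at an unadjusted p under 0.05, against 6.94% of all genes tested. The smallest p belonged to Myh2, of fast oxidative fibres, and Myh13, of eye muscles, with log2 fold changes of -3.06 and -1.71. Myh3, the embryonic heavy chain of new fibres, had 44.5, 66.3, 67.5 and 48.6 CPM in Sirt7 scKO, against 209.9, 122 and 62.7 CPM in Control. The lowest of the 7 libraries for Myh3 was Sirt7 scKO replicate 1 (log2 fold change -1.21, SE 0.29, edgeR adjusted p = 0.124). Myh4, the heavy chain of the fastest fibres, had 767, 51.7, 235 and 170.5 CPM in Sirt7 scKO, against 501, 473 and 361 CPM in Control. The highest of the 7 for Myh4 was again Sirt7 scKO replicate 1 (log2 fold change -0.54, SE 0.57, edgeR adjusted p = 0.719). The log2 fold change of Myh4 was -1.55 (edgeR adjusted p = 0.0575) without Sirt7 scKO replicate 1 and -0.18 without Sirt7 scKO replicate 2.

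Transcription factors that act on fibre genes had a median nearer 0. Of 14 tested (of 16), 11 were negative, with a median of -0.12 and none past the threshold. At an unadjusted p under 0.05, 2 of the 14 were lower and 1 higher, against 6.94% and 6.69% of all genes tested. The smallest p belonged to Srf, serum response factor, at 65.4 ± 9.60 CPM in Sirt7 scKO and 87.6 ± 5.90 CPM in Control (SD, n = 4 and 3), and to Mef2d at 150.00 ± 12.3 CPM in Sirt7 scKO and 185 ± 20.5 CPM in Control (SD, n = 4 and 3). Myogenin (Myog), the factor of differentiating myoblasts, had 92.6, 191, 168 and 139 CPM in Sirt7 scKO, against 307, 188 and 137 CPM in Control. It was lowest in Sirt7 scKO replicate 1 and highest in Control replicate 1 (log2 fold change -0.51, SE 0.25, edgeR adjusted p = 0.390).

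Markers of fibre cytoplasm and membrane were also highest in replicate 1 of each group. Their summed level was 1618, 402, 635 and 649 CPM in Sirt7 scKO, against 2124, 1544 and 962 CPM in Control. The sum in Sirt7 scKO replicate 1 was thus above those of Control replicates 2 and 3. All 13 had negative fold changes, with a median of -0.91, and 7 were lower at an unadjusted p under 0.05, against 6.94% of all genes tested. The smallest p belonged to Ryr1 (-1.05) and Eno3 (-0.60) as log2 fold changes. Creatine kinase (Ckm) had 368, 46.2, 106 and 133 CPM in Sirt7 scKO, against 469, 349 and 185 CPM in Control (log2 fold change -1.03, SE 0.49, edgeR adjusted p = 0.380). The fold change of Ckm was -1.82 on the log2 scale without Sirt7 scKO replicate 1. Markers of stem cells and myoblasts were tested for 8 of 11 genes, of which 5 were negative (median -0.08). At an unadjusted p under 0.05, 2 of the 8 were lower and 1 higher, against 6.94% and 6.69% of all genes tested. They summed to 817 to 1036 CPM in Sirt7 scKO and 956 to 1601 CPM in Control. The smallest p belonged to Des (-0.89) and Itga7 (-0.37). Des is also among the further sarcomere genes and made up a large part of these sums. It stood at 393 ± 116 CPM in Sirt7 scKO and 730 ± 255 CPM in Control (SD, n = 4 and 3). Myf5, named after its values were seen, was the 1 gene higher at the unadjusted level (log2 fold change 0.45, SE 0.18, edgeR adjusted p = 0.292). Pax7, the marker of stem cells, stood at 12.4 ± 3.42 CPM in Sirt7 scKO and 11.5 ± 0.716 CPM in Control (SD, n = 4 and 3).

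No marker of other cells of injured muscle passed the threshold. The neutrophil list had a median log2 fold change of 0.99, as far from 0 as that of the sarcomere genes and in the other direction. Of its 4 tested genes (of 7), 3 were higher in Sirt7 scKO at an unadjusted p under 0.05, against 6.69% of all genes tested, and 1 was negative. Mmp9, a gelatinase of neutrophils and macrophages, had 88.1, 97.7, 98.4 and 40.9 CPM in Sirt7 scKO, against 43.95, 42.2 and 41.3 CPM in Control (log2 fold change 0.94, SE 0.23, edgeR adjusted p = 0.130). S100a9, a calcium-binding protein of neutrophils, had 3.24, 4.97, 2.40 and 3.03 CPM in Sirt7 scKO, against 0.869, 0.898 and 2.10 CPM in Control (log2 fold change 1.40, SE 0.41, edgeR adjusted p = 0.183). S100a8, its partner, named after its values were seen, had 5.21, 4.71, 3.59 and 2.84 CPM in Sirt7 scKO, against 1.91, 2.16 and 1.93 CPM in Control (log2 fold change 1.04, SE 0.31, edgeR adjusted p = 0.185). Csf3r, the 1 negative gene, also named after its values were seen, had 54.4, 57.7, 64.8 and 57.9 CPM in Sirt7 scKO, against 63.1, 70.2 and 65.5 CPM in Control (log2 fold change -0.17, SE 0.09, edgeR adjusted p = 0.436). The groups did not overlap for S100a9 and S100a8, both at low levels, and 12.2% of all genes tested did not overlap in either direction. Sirt7 scKO replicate 4 lay below Control for Mmp9. The list summed to 151, 165, 169 and 105 CPM in Sirt7 scKO, against 109.8, 116 and 111 CPM in Control. Ly6g, its defining marker, was at 0 counts in all 7 libraries. The other untested genes were named after their values were seen. Cxcr2 had 14, 14, 11 and 9 counts in Sirt7 scKO, against 0, 4 and 4 in Control. Retnlg had 1, 1, 0 and 2 counts in Sirt7 scKO, against 0, 1 and 1 in Control. These are too few for a fold change.

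The other lists had medians nearer 0, and each is given with the log2 fold changes of its genes with the smallest p. The macrophage list (12 of 12 tested, 7 negative, median -0.05) summed to 11325 to 14068 CPM in Sirt7 scKO and 11902 to 12566 CPM in Control, with C1qa (-0.33) and C1qb (-0.26). The fibro-adipogenic progenitor list (10 of 10 tested, 9 negative, median -0.10) summed to 7036 to 8016 CPM in Sirt7 scKO and 7200.1 to 7941 CPM in Control, with Dpt (-0.51) and Ly6a (-0.44). The endothelial list (7 of 7 tested, 4 negative, median -0.00) summed to 371 to 425 CPM in Sirt7 scKO and 367 to 446 CPM in Control, with Vwf (-0.36) and Tek (-0.33). The smooth muscle and pericyte list (7 of 9 tested, 2 negative, median 0.15) summed to 495 to 629.6 CPM in Sirt7 scKO and 515 to 559 CPM in Control, with Pdgfrb (0.30) and Smtn (-0.29). At an unadjusted p under 0.05, these lists had 1 of 12, 3 of 10, 2 of 7 and 1 of 7 genes lower, against 6.94% of all genes tested. The smooth muscle list had 1 of 7 higher, against 6.69%. Of the cardiac list, Tnni3 alone could be tested, at 2.09 ± 0.243 CPM in Sirt7 scKO and 1.53 ± 0.0771 CPM in Control (SD, n = 4 and 3). Myl7, of the atrium, was at 0 counts in all 7 libraries, and Myh6 had at most 1 count in any. The part of these lists in the levels of the sarcomere genes was not tested.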

How the data were processed

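RNA-seq of 4 Sirt7 scKO and 3 Control libraries was used, prepared per the labels' protocols with an NEBNext Ultra RNA kit, whose reads carry no strand. The submitters' processing notes name fastp, Bowtie2, featureCounts and GRCm38 (mm10). They give no strand setting, annotation release or rule for reads that map more than once. The deposited values are raw counts per gene, in whole numbers. Symbols, positions and exon lengths came from GENCODE mouse release 21 (GRCm38), which held 48144 of the 48820 identifiers once versions were dropped.

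edgeR 4.0.16 (R 4.3.3) was run on the counts with filterByExpr (at least 10 counts, and 15 in total), TMM factors and its quasi-likelihood test. P-values were adjusted over 16764 genes (Benjamini-Hochberg, 0.05). An SE is the size of the fold change over the square root of F. The biological coefficient of variation was 11.9%. Isoform ratios used counts plus 0.5. The fit was tested on simulated data in which every gene had the common dispersion of 0.0142 and was drawn independently. The sarcomere genes spread more within the groups and moved together, so that test does not show how the fit performs for them.

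Members and lists were chosen with earlier results of these data known. Every library's value is given for the 24 genes with the smallest unadjusted p, for Acta1, Actc1, Ttn and Neb, and for positive fold changes. Of other lists, the genes named are the 2 with the smallest p, and Myh3, Myh4, Myog, Pax7, Ckm and Sirt7. S100a8, Csf3r, Cxcr2, Retnlg and Myf5 were named after their values were seen. Alternatives were 3 scalings, 2 filters, DESeq2 1.42.0, limma 3.58.1 voom with and without quality weights, robust dispersion, a replicate block, protein-coding genes alone, and 7 fits without 1 library each.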

Additional observations from a re-analysis of the deposited data

Results flagged for a closer look

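In 4 of the 45 tested genes, Sirt7 scKO replicate 1 lay apart from the other 3 Sirt7 scKO libraries by more than Dixon's 95% critical value for 4 samples, measured as the gap to the nearest library over the range of the group. Csrp3 stood at 19.3 CPM in that library, with the next at 6.67 CPM (gap over range 0.981). Ldb3, a Z-disc protein that binds alpha-actinin, stood at 88.8 CPM, with the next at 30.2 CPM (0.880). Tmod4 stood at 8.72 CPM, with the next at 3.41 CPM (0.871). Xirp1 stood at 45.4 CPM, with the next at 30.2 CPM (0.844). Of 56 quantities checked in this way (45 genes, 10 isoform ratios and Sirt7), these 4 passed, and chance flags about 1 in 20. The 45 genes share their libraries and are not separate checks.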

How the results depend on the processing

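Directions held in all but 3 values, and the counts of calls varied. Of 594 values for single genes under 18 alternatives, 509 kept their direction and side of the threshold, 82 kept their direction and passed it, and 3 reversed: Tpm3 without Control replicate 1 (-0.030), and Ankrd1 without Control replicate 3 (-0.095) and without Sirt7 scKO replicate 1 (-0.032). With 1 library left out, Tpm3 ranged from -0.030 to 0.15 and Ankrd1 from -0.095 to 0.13. The sarcomere genes past the threshold, all lower, were 0 in the test reported. Actn3 alone passed with upper-quartile scaling (0.0537% of all genes lower), total-count scaling (0.0597%), a filter at a mean of 1 CPM (0.0395%) and limma voom with quality weights (0.453%), that is 1 gene each. DESeq2 called 2 (0.447%), no filter 40 of 47 (1.32% of 28443 genes), the replicate block 26 (2.18%), and fits without 1 library 0 to 23. In the replicate block, Sirt7 scKO replicate 4 has no Control of its number and so does not inform the fold change. All genes past the threshold in either direction, 22 in the test reported, numbered 33 with upper-quartile scaling, 35 with total-count scaling, 585 with no filter, 31 with the 1 CPM filter, 154 with DESeq2, 137 with limma voom with quality weights, 56 with robust dispersion, 537 with the replicate block, 5 among 13081 protein-coding genes alone, and 0 to 330 without 1 library. The cause was not tested. Same-numbered libraries shared little: their deviations from the group means correlated at 0.123, -0.074 and 0.096 for numbers 1 to 3. Sirt7 scKO replicates 1 and 3 correlated best with the Control library of their own number, and Sirt7 scKO replicate 2 with Control replicate 3. The correlations were low and no label states a pairing, so the numbers were not taken as pairs in the test reported. Low-count genes such as Myl2 and Myl3 lie below what this depth can compare.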
